A study of Rattus norvegicus with 9 samples.

Results

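Chromosome 2 was the part of the rat genome described here, and its members were all accessible regions that the deposited table of normalized reads places on it. There were 17801 such regions of 186719 in the whole genome. The chromosome was picked with its readout known, because its median change after nerve injury was among the lowest of the 21 chromosomes, so that median is given below as a description with no test. The material was dorsal root ganglia (DRGs), the clusters of sensory nerve cell bodies and their satellite glia beside the spinal cord, from adult female Sprague-Dawley rats. The age is given as 8 to 10 weeks in one place of the study and as 12 to 16 weeks in another. In 2 rats the sciatic nerve had been loosely tied, which is chronic constriction injury (CCI), and the L4 to L6 ganglia of the injured side were taken 14 days later. The group sizes follow the labels and the column names, while other passages of the study give 3 CCI and 2 naive libraries or 3 of each. The 3 naive rats had no operation, so the effects of surgery and of constriction cannot be told apart. Each rat gave 1 ATAC-seq library, and H3K4me1 ChIP-seq used 2 samples from injured and 2 from naive animals, each a pool of 3 rats, and was deposited as 1 merged set of positions.

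In ATAC-seq, the transposase Tn5 cuts and tags DNA where nucleosomes are sparse, so that reads over a region measure how open its chromatin is. H3K4me1, a methyl group on lysine 4 of histone H3, marks enhancers and the flanks of promoters. Mammalian chromosomes alternate along their length between gene-rich stretches with many enhancers and gene-poor stretches with few, over scales up to megabases. Windows of 1 Mb were therefore used to follow CCI against naive along the chromosome. A bulk ganglion holds neurons, satellite and Schwann glia and immune cells, and a change in the makeup of the tissue and a change in accessibility within cells cannot be told apart. The ganglion label itself could not be checked against marker genes, since gene names were known only for regions that the study listed.

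The sequences that stand for named places on this chromosome come first. The region near Slc1a3, which encodes the glutamate transporter of satellite glia and astrocytes, was cloned by the study as luciferase construct D, from chr2:57941334-57941850 of rn6, 517 bp. The primers that bound it are shown with the 22 bases that match the genome in capitals and the cloning tails in lower case.
Construct D forward primer: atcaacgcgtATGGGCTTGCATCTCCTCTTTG
Construct D reverse primer: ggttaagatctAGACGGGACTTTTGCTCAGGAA
Of the 33 genes on chromosome 2 with a promoter region listed by the study, 24 had a promoter in the RefSeq table, which is of build GRCr8 and reaches from 250 bases before to 50 bases after the start of the gene. The windows need not coincide with the rn6 regions measured here. Shown are the pair of listed promoters of lowest p in each direction among genes of the lists used below, with CG dinucleotides, the main sites of DNA methylation, in capitals. Nlgn1 and Cwc27 were less accessible after CCI, and Ctsk and Lpar3 more accessible.
Nlgn1 promoter (GRCr8, chr2:110930627-110930926, minus strand): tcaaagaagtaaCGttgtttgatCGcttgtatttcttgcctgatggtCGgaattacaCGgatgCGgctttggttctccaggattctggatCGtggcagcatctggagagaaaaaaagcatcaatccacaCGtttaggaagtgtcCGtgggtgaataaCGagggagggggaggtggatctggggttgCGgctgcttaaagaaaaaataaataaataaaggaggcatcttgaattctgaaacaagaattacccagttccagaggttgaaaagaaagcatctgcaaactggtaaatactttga
Cwc27 promoter (GRCr8, chr2:37709289-37709588, minus strand): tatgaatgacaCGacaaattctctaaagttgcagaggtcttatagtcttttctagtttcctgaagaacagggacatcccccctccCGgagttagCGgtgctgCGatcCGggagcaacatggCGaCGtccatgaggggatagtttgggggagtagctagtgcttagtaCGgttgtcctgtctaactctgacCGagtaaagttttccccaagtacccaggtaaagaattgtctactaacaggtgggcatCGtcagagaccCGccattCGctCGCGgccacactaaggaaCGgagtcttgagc
Ctsk promoter (GRCr8, chr2:185747298-185747597, plus strand): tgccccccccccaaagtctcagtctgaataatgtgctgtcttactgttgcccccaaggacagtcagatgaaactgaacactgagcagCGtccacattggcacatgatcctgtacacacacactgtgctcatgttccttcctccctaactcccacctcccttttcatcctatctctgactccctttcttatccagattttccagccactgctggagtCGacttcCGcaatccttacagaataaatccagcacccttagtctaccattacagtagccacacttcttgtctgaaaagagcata
Lpar3 promoter (GRCr8, chr2:237809095-237809394, plus strand): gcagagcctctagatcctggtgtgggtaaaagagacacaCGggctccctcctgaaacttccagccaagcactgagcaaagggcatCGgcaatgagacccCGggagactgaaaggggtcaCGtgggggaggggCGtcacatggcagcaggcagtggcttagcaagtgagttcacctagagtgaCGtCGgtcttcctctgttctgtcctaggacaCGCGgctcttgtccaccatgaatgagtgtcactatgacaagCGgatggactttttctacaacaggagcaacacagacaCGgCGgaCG
The Nlgn1, Cwc27, Ctsk and Lpar3 promoters held 10, 15, 3 and 13 CG dinucleotides, against a median of 7 over all 27457 RefSeq promoters. On either strand, CCAAT was found in the Ctsk promoter and in none of the other three, and it was found in 37.7% of all promoters. Neither TGANTCA nor GGGCGG was found in these 4 promoters, and they were found in 7.33% and 34.9% of all promoters.

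Chromosome 2 carried a sparse set of marked enhancers. Of its 17801 accessible regions, 4542 overlapped an H3K4me1 region by at least 1 bp, which was 25.5% and the lowest share of the 21 chromosomes, against 31.9% over the others. H3K4me1 regions numbered 15218, or 57.1 per Mb, which ranked 20 of 21. Accessible regions were not as sparse, with 66.8 per Mb and rank 17. Their median length was 241 bp, from 150 bp to 3674 bp. In naive rats the regions with H3K4me1 had a median of 18.7 normalized reads and a median length of 354 bp, and those without it had 8.15 normalized reads and 223 bp. Normalized reads are read numbers scaled by the depth of the library.

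The libraries differed in depth. CCI rats 1 and 2 had 7692994 and 9304710 reads recovered over all regions, while naive rats 1, 2 and 3 had 13248437, 4633807 and 6382154. Chromosome 2 took 7.50% and 7.77% of them in the CCI rats, with 8.84%, 8.43% and 8.71% in the naive rats, so that both CCI shares were below all 3 naive shares. This share is tied to the measure by which the chromosome was picked. The shallowest library, naive rat 2, had a median of 9 reads over a chromosome 2 region, and 5.94% of the regions were at 1 read there, the lowest in that library. The deepest, naive rat 1, had a median of 31 reads.

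The median log2 fold change of CCI over naive was -0.03 on chromosome 2, where fold changes are differences of means of log2(normalized reads + 1). Over all 186719 regions it was 0.13. Only chromosome X was lower, with -0.12, and the next above was chromosome 11, with 0.05. At the other end stood chromosome 12 and chromosome 10, both at 0.49. In CCI rats 1 and 2, the median deviation of a chromosome 2 region from the mean of the 5 rats was -0.0026 and -0.052. In naive rats 1, 2 and 3 it was 0.12, -0.04 and -0.03. Naive rat 1 thus stood above the other 4, which lay close to each other and in which the groups overlapped. Without naive rat 1 the chromosome median was 0.03 and its sign turned.

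The order of the chromosomes followed how densely they carry H3K4me1. Across the 21 chromosomes, Pearson's r between the median log2 fold change and H3K4me1 regions per Mb was 0.97. The points share the same 5 libraries, and the correlation is a description. Taken rat by rat, r between the chromosome medians and H3K4me1 per Mb was 0.97 and 0.95 in the CCI rats, against -0.97, -0.57 and -0.96 in the naive rats. These medians are of deviations from the mean of the 5 rats, so that opposite signs between rats are in part built in. Chromosome 2, with few marked regions per Mb and a low median, lay at the sparse end of the order of the chromosomes.

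Along chromosome 2, the difference between CCI and naive was higher and lower in blocks. The value of a window in a rat was the median deviation of its regions minus the rat's own chromosome 2 median, so that the value that chose the chromosome was removed. In all, 267 windows held at least 20 regions, with a median of 65 and a range of 21 to 163. The departure of a window, CCI minus naive, ran from -0.44 to 0.47 on the log2 scale, with quartiles of -0.16 and 0.11 and an SD of 0.19 over windows. It was below 0 in 155 windows and above 0 in 112. The spread over windows was small for this genome, as chromosome 2 ranked 19 of 21 by the SD of the departures.

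**Figure D1:**
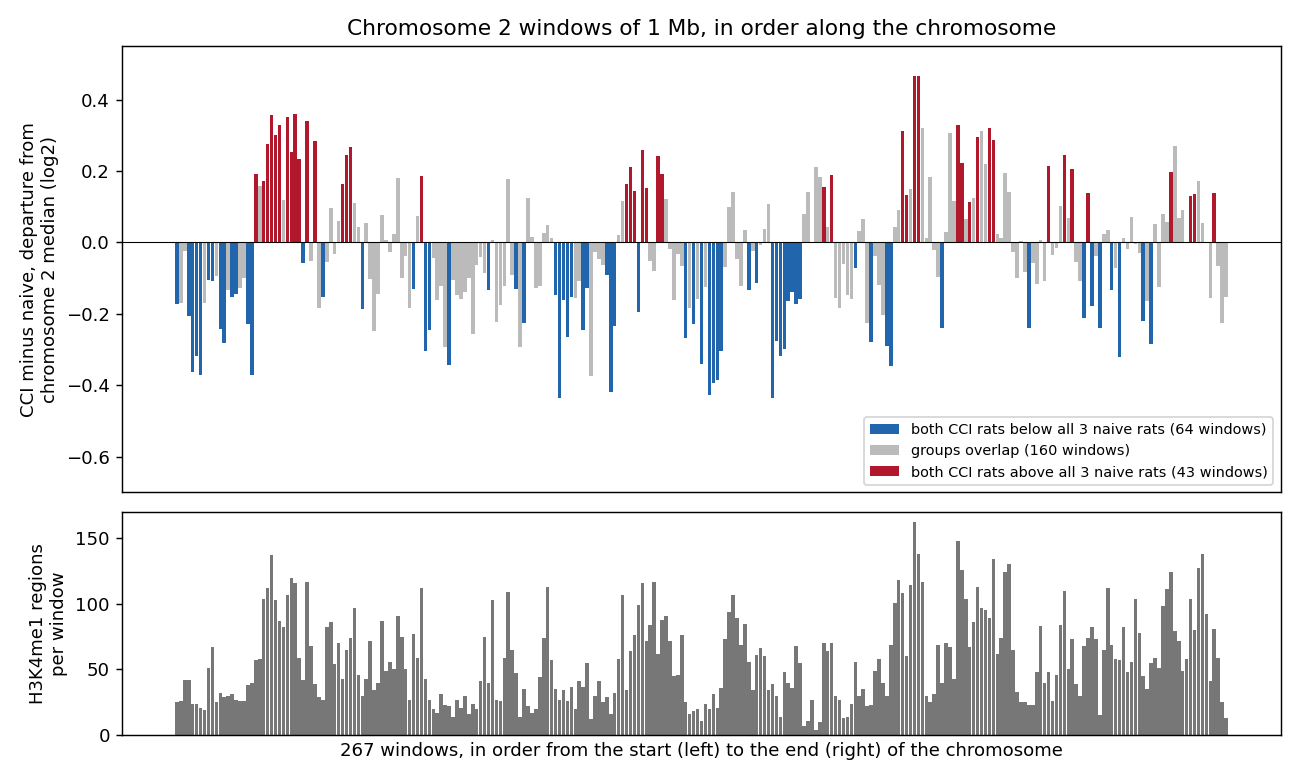
Departure of each of the 267 windows of chromosome 2 from the chromosome's median change (upper panel, CCI minus naive, log2) and the number of H3K4me1 regions in the same window (lower panel), in order along the chromosome. Blue bars mark the 64 windows with both CCI rats below all 3 naive rats and red bars the 43 windows with both above, and red bars gather where the lower panel is high.

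Both CCI rats were below all 3 naive rats in 64 windows, 24.0% of those tested, and above all of them in 43, 16.1%. Over all 2715 windows of the genome these shares were 28.3% and 21.9%, so that chromosome 2 had no excess of such windows. By limma across all windows of the genome, 9 windows were low and 4 high at an unadjusted p below 0.01, or 3.37% and 1.5%, against 6.89% and 4.97% in the genome. At an unadjusted p below 0.05 there were 30 low and 24 high, or 11.2% and 8.99%, against 18.5% and 12.8%. After Benjamini-Hochberg adjustment over all windows no window of chromosome 2 passed 0.05 by limma, in either direction. Of the whole genome 1 low window passed, which is 0.0368%, and 0 high ones, which is 0%. The lowest adjusted p on chromosome 2 was 0.0724 by limma, and 22 windows were below 0.1. Without naive rat 2, 19 windows low and 19 high passed the adjusted threshold on chromosome 2. The genome's share in that fit is not given here, so no excess is read from this count, and its cause was not tested.

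Neighbouring windows had similar departures. The correlation of the departure between a window and the next was 0.58 over the 267 windows, as a description over windows of the same 5 libraries. It reached 0.80 on chromosome 8, and only chromosomes 16 and X were lower than chromosome 2, with 0.50 and 0.25. Stretches of at least 3 consecutive windows in which the groups did not overlap numbered 5 below, with 24 windows in all, and 4 above, with 15. Their number on other chromosomes is not given here, so no excess is read from it. The longest ran from 151 to 159 Mb, with 8 windows and 562 regions. Its mean values were -0.20 and -0.12 in the CCI rats, against 0.15, 0.04 and 0.08 in the naive rats, a departure of -0.25. At a limma p below 0.01, 31 of its regions were called less accessible and 1 more accessible, or 5.52% and 0.178%. Over the chromosome these shares were 2.25% and 0.680% and over the genome 1.46% and 2.13%, and the stretch was itself defined by low values in the CCI rats. The stretch from 135 to 139 Mb was the lowest, with -0.26 and -0.16 in the CCI rats, against 0.28, 0.08 and 0.13 in the naive rats. The other low stretches were 3 to 7 Mb, 96 to 101 Mb and 109 to 112 Mb, with mean departures of -0.31, -0.23 and -0.25.

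The longer high stretches lay near 25 Mb. From 22 to 27 Mb the mean values were 0.23 and 0.11 in the CCI rats, against -0.22, -0.02 and -0.10 in the naive rats, a departure of 0.29. From 28 to 32 Mb they were 0.22 and 0.12 against -0.30, -0.05 and -0.04, a departure of 0.30. The shorter ones, 42 to 45 Mb and 114 to 117 Mb, had departures of 0.22 and 0.17. In blocks of 10 Mb the mean departure was highest from 20 to 30 Mb, at 0.25, and from 200 to 210 Mb, at 0.18. It was lowest from 130 to 140 Mb, at -0.26, and over the first 10 Mb, at -0.20. From 50 to 110 Mb all 6 blocks were below 0, and from 120 to 160 Mb all 4.

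The single windows farthest from the chromosome median, 8 on each side, showed how the rats differed. The lowest window, 97 to 98 Mb, had 42 regions and values of -0.37 and -0.06 in the CCI rats, against 0.40, 0.07 and 0.19 in the naive rats. Its departure of -0.44 is a ratio of 0.740. The window from 151 to 152 Mb, with 63 regions, had -0.31 and -0.13 in the CCI rats, against 0.22, 0.19 and 0.23 in the naive rats. It had the lowest p of the chromosome by limma, 0.00110, with a departure of -0.43 and an SE of 0.10. The others were the windows that start at 135, 110, 136, 137, 105 and 6 Mb. Their departures ran from -0.43 to -0.37, and in the window at 105 Mb, which had 21 regions and CCI rat 2 at 0.03 and naive rat 2 at -0.01, the groups overlapped. Of the 407 regions in the 8 low windows, 31 were called less accessible, or 7.62%, and 0 more accessible. This restates the contrast that ranked the windows. Over the genome 1.46% were called less and 2.13% more accessible.

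At the high end stood a neighbouring pair. The window from 188 to 189 Mb had 122 regions, with values of 0.40 and 0.17 in the CCI rats, against -0.39, 0.07 and -0.22 in the naive rats. Its departure of 0.47, with an SE of 0.14, is a ratio of 1.38. The window from 187 to 188 Mb, with 126 regions, had 0.39 and 0.15 against -0.38, 0.03 and -0.24. The others began at 30, 24, 28, 33, 26 and 198 Mb, with departures of 0.33 to 0.36, and the groups did not overlap in any of the 8. In each of the 8, CCI rat 1 was the highest rat and naive rat 1 the lowest. Of their 683 regions, 15 were called more accessible and 2 less accessible, or 2.20% and 0.293%, in the contrast that ranked them. Over the chromosome these shares were 0.680% and 2.25%, and over the genome 2.13% and 1.46%. The share of rises in these windows was thus near that of the genome.

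**Figure D2:**
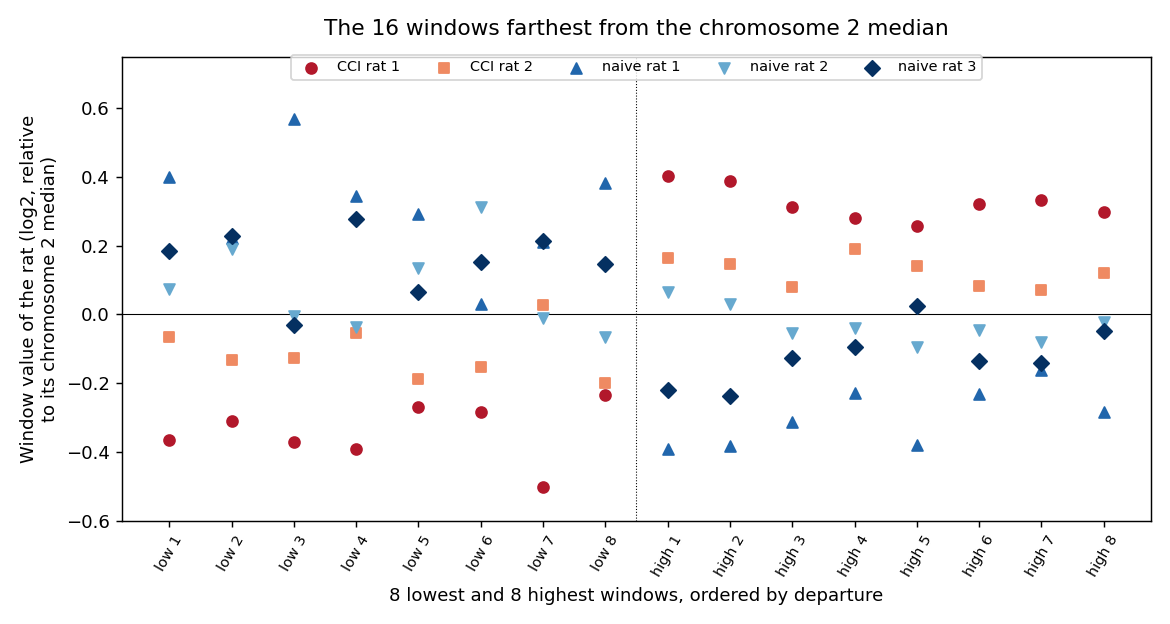
Value of each rat (log2, relative to its chromosome 2 median) in the 8 lowest and the 8 highest windows, ordered by departure. CCI rat 1 and naive rat 1 lie at opposite ends in most windows, while CCI rat 2 and naive rat 2 lie nearer to 0.

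The low and high windows differed in what they carry. The 8 lowest held 12 to 39 H3K4me1 regions each, and 4.44% to 20.6% of their accessible regions overlapped one. The 8 highest held 87 to 162, with overlaps of 28.1% to 67.5%. H3K4me1 was measured in other rats than the accessibility and was not used to choose the windows. Genes named by the study in the low windows were P2ry1 and Rap2b at 151 Mb, RGD1307595 at 136 and 137 Mb and LOC499584 at 110 Mb, and all their listed regions had lower values after CCI. In the high windows they were Arhgef2, Crabp2 and Mef2d at 187 Mb, Fam189b and Pmvk at 188 Mb and Fcgr1a at 198 Mb. All of these had higher values after CCI. The windows and the study's lists were both chosen by CCI against naive in these rats, so these directions are not independent evidence. Of all 137 listed regions on the chromosome, 119 had lower values after CCI.

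Over all 267 windows, the departure rose with the number of H3K4me1 regions. Pearson's r was 0.67 and Spearman's rho 0.65, and with the share of accessible regions that overlap H3K4me1 they were 0.63 and 0.62. These are descriptions over windows that share 5 libraries. With the number of accessible regions r was 0.28, and with the naive signal of the window it was 0.29. Windows below the chromosome median had a median of 35 H3K4me1 regions, and those above it 79.5. On all 21 chromosomes r was above 0, from 0.46 on chromosome X to 0.84 on chromosome 20, and chromosome 2 ranked 18 of 21.

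The rats did not share the relation by group. Over the 267 windows, r between the value of a rat and the number of H3K4me1 regions was 0.73 in CCI rat 1 and 0.15 in CCI rat 2. In naive rats 1, 2 and 3 it was -0.78, 0.28 and -0.50. Naive rat 2 thus had the same sign as the CCI rats, and a larger r than CCI rat 2. The values of CCI rat 1 and naive rat 1 mirrored each other, with r of -0.80.

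Windows were next sorted into quintiles by their number of H3K4me1 regions, which was done after the relation had been seen. The poorest quintile had 53 windows with 4 to 26 H3K4me1 regions and the richest 54 windows with 86 to 162. In the poorest quintile the CCI rats had mean values of -0.19 and 0.01 and the naive rats 0.22, -0.10 and 0.08. In the richest they were 0.17 and 0.03 against -0.17, 0.01 and -0.07. The richest minus the poorest was 0.36 and 0.02 in the CCI rats, against -0.39, 0.11 and -0.16 in the naive rats. The difference of the group means was 0.33, with an exact permutation p of 0.3 over the 5 rats (two-sided), in a design where the smallest possible p is 0.1. The groups overlapped, as naive rat 2 lay above CCI rat 2. Without CCI rat 1 the difference was 0.17 and without naive rat 1 it was 0.22. Over all regions of a window, both CCI rats were above every naive rat in 23 of the 54 richest windows. This held in 0 of the 53 poorest. Both were below every naive rat in 1 of the richest and 15 of the poorest. Over all windows of chromosome 2 the shares above and below were 16.1% and 24.0%, and over the genome 21.9% and 28.3%.

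The comparison was repeated on each side of the mark. With regions that did not themselves overlap H3K4me1, the richest minus the poorest quintile was 0.37 and 0.11 in the CCI rats, against -0.41, 0.04 and -0.19 in the naive rats. Both CCI rats were then above every naive rat, unlike with all regions, and the group difference was 0.43 with an exact permutation p of 0.2. With regions that overlapped H3K4me1, where only 2 windows of the poorest quintile could be used, it was 0.24 and 0.14 against -0.21, -0.04 and -0.15. The groups were apart there too, with a difference of 0.32 and an exact permutation p of 0.1.

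**Figure D3:**
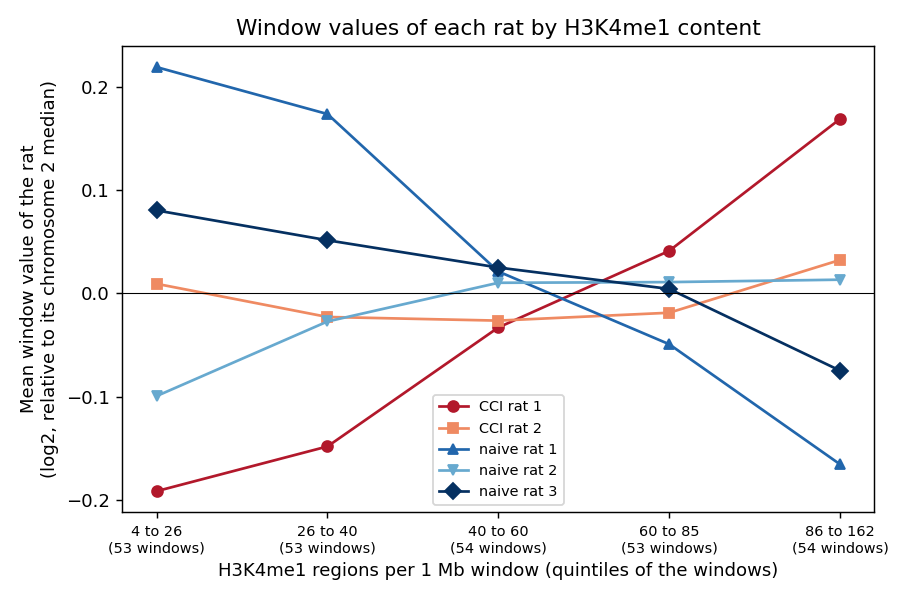
Mean window value of each rat (log2, relative to its chromosome 2 median) in quintiles of the 267 windows by their number of H3K4me1 regions. CCI rat 1 rises from -0.19 to 0.17 and naive rat 1 falls from 0.22 to -0.17, while CCI rat 2 and naive rat 2 change less.

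Overlap of a region itself with H3K4me1 did not separate the groups. The median deviation of regions with H3K4me1 minus that of regions without it was 0.14 and -0.14 in the CCI rats. In the naive rats it was -0.12, 0.18 and 0.01, and the ranges overlapped fully. The difference of group means was -0.02, with an exact permutation p of 0.8 over the 5 rats, and its sign turned without CCI rat 2 and without naive rat 2, to 0.13 and 0.06. Within 5 classes of regions with similar mean signal, the values were 0.10 and -0.01 in the CCI rats, against -0.08, -0.02 and -0.04 in the naive rats. There the CCI rats were both higher than every naive rat, by 0.09 on average, with the smallest exact permutation p the design allows, 0.1.

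Naive signal divided the chromosome in another way. Regions were put into 5 equal classes by their mean over the 3 naive rats, whose medians ran from 4.70 to 38.6 normalized reads. The share that overlapped H3K4me1 rose from 10.6% in the lowest class to 61.0% in the highest, and the median length from 166 to 611 bp. From the lowest class to the highest, the median log2 fold changes were 0.63, 0.03, -0.15, -0.16 and -0.21. The classes were made from the naive rats that also enter the fold change, so that their counting error enters both.

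Classes made from the mean of all 5 rats treat both groups alike. With these the median log2 fold changes of the 4 lower classes were all within 0.05 of 0, so that the high value of the lowest class was absent, and that of the highest was -0.15. The highest minus the lowest class was then 0.23 and -0.32 in the CCI rats, against -0.35, 0.50 and 0.09 in the naive rats, which overlapped. With the naive classes it was -0.20 and -0.69 in the CCI rats, against -0.02, 0.70 and 0.28 in the naive rats. The group difference fell in size from -0.77 (exact permutation p 0.2) to -0.12 (exact permutation p 0.8). When naive rat 1 alone made the classes and left the comparison, the 4 other rats gave 0.00 and -0.40 in CCI and 0.43 and 0.16 in naive. In the highest class, CCI rat 2 had the lowest value under each of these 3 definitions, between -0.23 and -0.20.

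**Figure D4:**
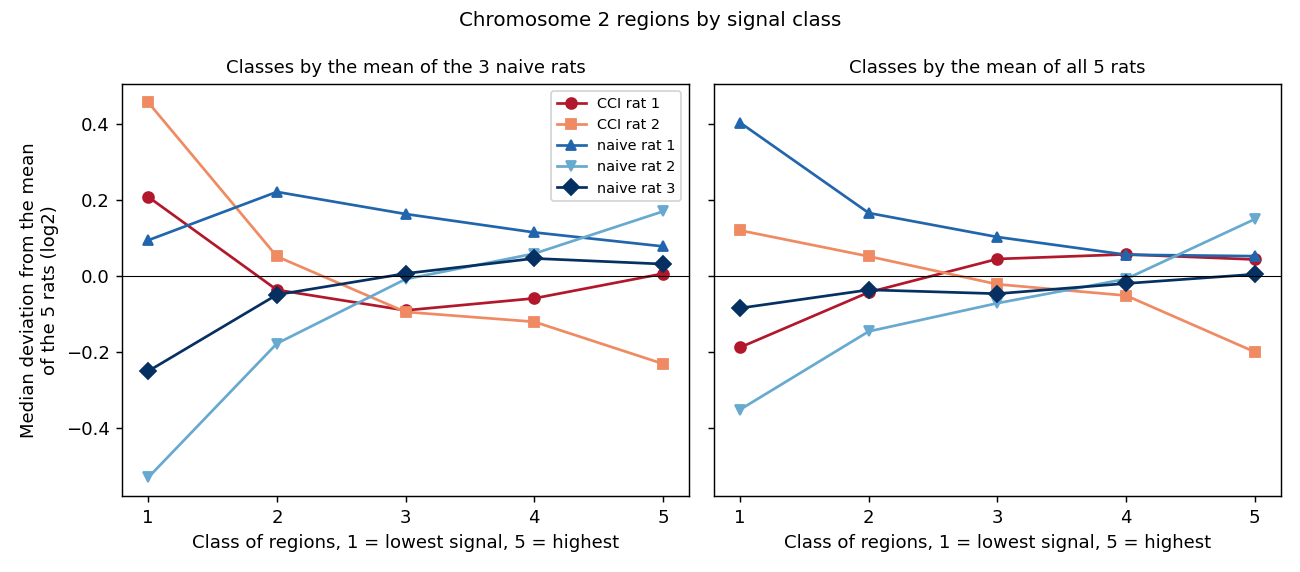
Median deviation of the chromosome 2 regions of a class from the mean of the 5 rats (log2), for each rat, with classes by the mean of the 3 naive rats (left) and by the mean of all 5 rats (right). The CCI rats stand above all 3 naive rats in the lowest class on the left, and CCI rat 1 falls to -0.19 in it on the right.

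Single regions were counted next. At a limma p below 0.01, 121 of 17801 regions rose and 400 fell, or 0.680% and 2.25%. Over all 186719 regions 2.13% rose and 1.46% fell by the same rule. These counts come from the same contrast as the median that picked the chromosome, so nothing is read from them. At a Benjamini-Hochberg adjusted p below 0.05 by limma, 3 rose and 60 fell, or 0.0169% and 0.337%, against 0.107% and 0.237% of all regions. On chromosome 10, at the other end of the order, 625 of 7780 regions rose and 21 fell at p below 0.01, or 8.03% and 0.270%. Without CCI rat 1 only 19 regions of chromosome 2 rose, and without naive rat 1 only 194 fell. Other scalings moved the split, to 75 rises and 676 falls with median-of-ratios factors, under which the chromosome median was -0.13, and to 100 and 854 with quantile normalization.

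The regions that fell had a median of 31.2 normalized reads in naive rats and 14.2 in CCI rats, with a median log2 fold change of -1.11. Those that rose had medians of 10.01 and 24.0, with a median log2 fold change of 1.24. These levels follow in part from the choice of regions by direction. Of the regions that fell, 159 or 39.8% overlapped H3K4me1, and of those that rose, 32 or 26.4% did. Of all chromosome 2 regions 25.5% did. Over the genome 1145 of the 2735 regions that fell overlapped H3K4me1, and 2010 of the 3968 that rose.

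The calls were also counted on each side of the mark. Among regions with H3K4me1, 32 rose and 159 fell, or 0.705% and 3.50%, where the genome had 3.44% and 1.96%. Among regions without it, 89 rose and 241 fell, or 0.671% and 1.82%, where the genome had 1.53% and 1.24%. These splits too belong to the contrast that picked the chromosome. The CCI rats were both higher than every naive rat in 2201 regions and both lower in 2660, or 12.4% and 14.9%, with 18.2% and 11% in the genome.

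The calls were also counted by place. The stretch from 180 to 210 Mb was chosen after its values were seen and holds 12.8% of the chromosome's regions in tested windows. In it lay 47 of the 121 regions that rose, or 38.8%, and 25 of the 400 that fell, or 6.25%. Of the 819, 752 and 703 regions in its blocks of 10 Mb, 17, 6 and 24 rose and 12, 6 and 7 fell. Over the genome 2.13% rose and 1.46% fell, so no excess of rises over the genome is read from this stretch. The most in a single window were 7 rises, from 187 to 188 Mb, and 9 falls. In the richest quintile of windows by H3K4me1, 76 of 4555 regions rose and 41 fell, or 1.67% and 0.900%. In the poorest 3 of 3074 rose and 77 fell, or 0.0976% and 2.50%. These shares can be set beside the 0.680% and 2.25% of the whole chromosome and the 2.13% and 1.46% of the genome. When the median of each window was removed from each rat, 144 regions rose and 383 fell, and 76 and 268 of these were among the regions called without that step.

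Of the 8 regions named for the lowest p among those that fell, the region near Siah2, an E3 ubiquitin ligase, came first (chr2:148988972-148989502, rn6). Its normalized reads were 16.02 and 12.8 in the CCI rats, against 55.9, 47.0 and 58.5 in the naive rats. The groups did not overlap, with a log2 fold change of -1.83 ± 0.30 (SE) and an adjusted p of 2.8e-05 by limma. Here and below, the limma SE and p of a region use a variance pooled over regions of similar signal. The region near Tdo2, which encodes the tryptophan-degrading enzyme tryptophan 2,3-dioxygenase, lies at chr2:180857025-180857871. It had 50.1 and 46.2 normalized reads in the CCI rats, against 110.4, 108 and 146.5 in the naive rats, with a log2 fold change of -1.31 ± 0.26 and an adjusted p of 0.00133 by limma.

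The region near Pcsk1, the convertase that cuts neuropeptide precursors, lies at chr2:91496002-91497204. Its normalized reads were 30.7 and 43.5 in the CCI rats, against 89.5, 96.0 and 82.8 in the naive rats, and the groups did not overlap. The region near Palmd, a cytosolic protein of the paralemmin family, had 3.34 and 16.02 against 28.8, 29.0 and 27.6. The 4 others had no gene in the study's lists and lie at chr2:495263-496278, chr2:180575178-180575960, chr2:227178644-227179204 and chr2:96971802-96972239, with log2 fold changes from -1.88 to -1.52. At the first of these CCI rat 1 had 4.67 normalized reads and CCI rat 2 had 24.3, close to the 26.0 of naive rat 2, and DESeq2 gave it an unadjusted p of 0.0788.

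The construct D region near Slc1a3, whose primers are shown above, had 16.02 and 12.8 normalized reads in the CCI rats, against 46.4, 40 and 34.8 in the naive rats. The groups did not overlap, and the log2 fold change was -1.42 ± 0.32 (SE) with an adjusted p of 0.0103 by limma. It overlapped H3K4me1 and lay in a window with a departure of -0.10. With the window median removed the log2 fold change was -1.28.

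Among regions that rose, the lowest p belonged to one near Fcgr1a, the high-affinity Fc receptor for IgG of macrophages (chr2:198528247-198529051). It had 64.8 and 55.4 normalized reads in the CCI rats, against 26.1, 24.0 and 27.6 in the naive rats, so that both CCI rats were above every naive rat. The log2 fold change was 1.18 ± 0.29 (SE) with an adjusted p of 0.0294 by limma, and its window had a departure of 0.33. The region near Fam189b had 37.4 and 40.3 against 10.8, 17.0 and 15.8, in the window of the highest departure, 0.47, and its log2 fold change was 1.38, or 0.96 with the window median removed.

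The 6 others carried no listed gene and none of them overlapped H3K4me1. The region at chr2:224789678-224790154 had 49.4 and 27.0 normalized reads in the CCI rats, against 10.1, 23.0 and 10.5 in the naive rats, with an adjusted p of 0.0401 by limma. The remaining 5, which start at 26584203, 204199766, 187097496, 196446718 and 46990754, had adjusted p from 0.0581 to 0.0690 by limma. In those that start at 187097496 and 196446718, naive rat 3 was at 0.66 normalized reads, which is 1 read, and the fold change depends on the pseudocount there. All 16 named regions were past p below 0.01 with the window median removed and by edgeR, and by DESeq2 7 of the 8 that fell and 5 of the 8 that rose were.

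**Figure D5:**
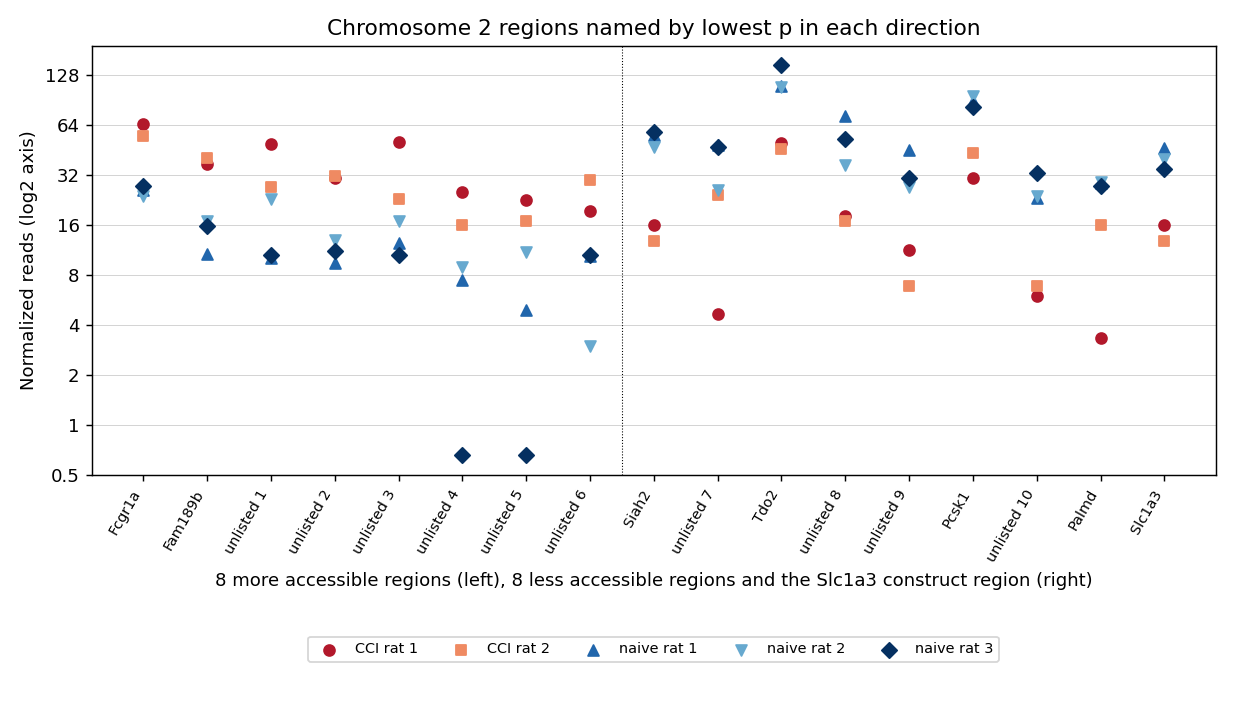
Normalized reads (log2 axis) of each rat at the 8 regions that rose and the 8 that fell with the lowest p on chromosome 2, and at the construct D region near Slc1a3. The points of the CCI rats lie above those of the naive rats on the left and below them on the right, as the rule for naming required, and the lowest points on the left are naive rat 3 at 1 read.

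The study listed 137 regions on chromosome 2 that it called in promoters or at H3K4me1. The lists were chosen on these samples, so that their direction is not independent evidence. Of the 137, 119 had lower and 18 higher values after CCI, and at a limma p below 0.01, 103 fell, 16 rose and 18 did not pass. Of those 18, 17 had a p below 0.05, the threshold that the study's methods name. Among the 33 promoters 17 fell, 2 rose and 14 did not pass. Of 59 chromosome 2 genes in the lists used here, 30 had a listed region, 33 regions in all, and in all 33 both CCI rats lay on one side of all naive rats. So they did in all 137 listed regions, against 12.4% above and 14.9% below over chromosome 2, and the study chose these regions on the same rats. Of these 33, 21 fell, 6 rose and 6 did not pass.

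Genes of transmission, channels and synapses had 7 listed regions, of which 4 fell, 2 rose and 1 did not pass, with a median log2 fold change of -1.15. At the promoter of Nlgn1 shown above, a postsynaptic adhesion protein, normalized reads were 22.0 and 7.78 in the CCI rats, against 37.6, 33.0 and 41.4 in the naive rats. A region near Ntng1, a membrane-bound netrin, also fell. A region near Celsr2, an atypical cadherin, rose, with 124.8 and 100.7 against 60.4, 70.0 and 73.6.

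Genes of neuropeptides, neurotrophins and receptors had 4 listed regions, of which 3 fell and 1 rose. Those at Npr3, the clearance receptor for natriuretic peptides, and Prok1, a prokineticin, fell by 1.20 and 1.26 on the log2 scale, beside Pcsk1 above. The promoter of Lpar3, a receptor for lysophosphatidic acid, rose, with 39.4 and 30.7 normalized reads in the CCI rats, against 18.6, 15.0 and 14.5 in the naive rats. No overlap between the groups was seen at any of them.

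Genes of immune cells, cytokines and lysosomes had 7 listed regions, of which 5 fell and 2 rose. Beside Fcgr1a, the promoter of Ctsk, the lysosomal protease cathepsin K, rose, with 50.7 and 42.1 normalized reads against 18.0, 22.0 and 29.6. P2ry1, an ADP receptor, had 118.2 and 125.9 against 272.5, 279.0 and 207.0. Its window is the one at 151 Mb, and with the window median removed its log2 fold change went from -1.03 to -0.55. Both regions near P2ry12, another ADP receptor and a marker of microglia, fell, by 1.29 and 0.93 on the log2 scale. Regions near C6, a complement component, and Tifa, an adaptor of the NF-kB pathway, fell by 1.22 and 1.25.

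Genes of RNA handling and translation had 7 listed regions, of which 4 fell and 3 did not pass, with a median log2 fold change of -0.72. At the Cwc27 promoter, of a spliceosome-associated protein, normalized reads were 72.8 and 71.4 in the CCI rats, against 138.5, 129.0 and 157.7 in the naive rats. Ostc, which is a subunit of oligosaccharyltransferase rather than a gene of RNA handling, fell by 0.86, Dhx36, an RNA helicase, by 0.77, and Mettl14, of the m6A methyltransferase, by 0.72. Rps23, a ribosomal protein, had 171.6 and 128.2 against 241.8, 218.0 and 233.9 and did not pass. Its window had a departure of -0.37, and with the window median removed its log2 fold change was -0.22.

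Genes of signalling and the cytoskeleton had 8 listed regions, of which 5 fell, 1 rose and 2 did not pass. Both regions near Rapgef2, an exchange factor for Rap, fell, by 1.53 and 0.89 on the log2 scale, and that near Rap1gds1 fell by 1.37. The rise was at Arhgef2, an exchange factor for RhoA, with 60.8 and 47.2 normalized reads against 30.1, 30.0 and 26.9, in the window at 187 Mb. With the window median removed its log2 fold change went from 0.86 to 0.44, with a limma p of 0.0959. Mef2d, a transcription factor in the same window, had 438.6 and 306.7 against 235.6, 276.0 and 247.1 and did not pass, and its log2 fold change went from 0.54 to 0.12.

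Genes taken here as markers of several cell types thus lay among the listed regions. For neurons, Pcsk1 fell, while Isl1 had no listed region. For glia, Slc1a3 fell. Among genes taken as marks of macrophages and other immune cells, Fcgr1a and Ctsk rose and P2ry12 fell, while Ctss and Csf1 had no listed region. Whether these genes mark such cells in the ganglion was not tested. The part of tissue makeup in these values was not tested.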

How the data were processed

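ATAC-seq was measured in 2 CCI and 3 naive rats, and H3K4me1 ChIP-seq only as merged positions. According to the submitters' processing notes and the study's methods, reads were converted with CASAVA 1.8.2, trimmed, aligned with Bowtie2 to rn6, filtered at a mapping quality of 10 and for duplicates, shifted for the Tn5 cut and extended to 150 bases around it, and peaks were called with MACS2. The deposited signal values are reads over each region scaled by the authors with 1 size factor per library, and 100% of them came out as whole reads. The merged H3K4me1 positions were not given per sample, so that CCI and naive H3K4me1 were not compared.

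All 186719 regions were fitted with limma 3.58.1 (R 4.3.3) with a trended variance on log2(value + 1), and a p below 0.01 was the threshold. The study's methods name a p below 0.05, but the p-values in its lists stay below 0.01. The 2715 windows with at least 20 regions were fitted with limma on the window values, with Benjamini-Hochberg adjustment at 0.05. Overlaps were made with bedtools 2.31.1. Differences of a single value were tested by exact two-sided permutation over rats, where the smallest p is 0.1. edgeR 4.0.16 (quasi-likelihood) and DESeq2 1.42.0 on the recovered reads were alternatives. The statistics were tested on simulated data. Permutation p-values rest on the spread between single rats, and window p-values on that spread moderated over all windows. In the main fit of regions, the trended variance was pooled over regions of similar signal. Its p-values and SEs thus reflect the typical spread between rats at that signal, not the spread at the single region. The windows named are the 8 farthest from the median on each side. The regions named are the 8 of lowest p in each direction among those called, with the groups apart and a mean of at least 10 reads, the construct D region, and regions listed by the study for genes of 5 fixed lists. Gene names come from the study's lists, matched by position (134 regions exactly, 3 by overlap). Members and lists were chosen with earlier results of these data known. Replicate numbers 1 and 2 occur in both groups but name different animals. Over chromosome 2 regions, the deviations of same-numbered rats from their group means correlated at -0.06 and -0.07, so that the numbers were not taken to pair the rats. Values of some single genes of these lists are not reported here, while the counts over the lists include them.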

Additional observations from a re-analysis of the deposited data

How the results depend on the processing

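All alternatives kept the falls on chromosome 2 more numerous than the rises, while the counts and the regions called moved. The numbers of regions that rose and fell at p below 0.01 were 121 and 400. Median-of-ratios rescaling gave 75 and 676, quantile normalization 100 and 854, limma without a trended variance 108 and 173, DESeq2 30 and 194, and the 58445 regions with H3K4me1 alone 39 and 162. A p below 0.05 gave 619 and 1042, and an adjusted p below 0.05 gave 3 and 60. Similar counts need not be the same regions. Of the 121 rises and 400 falls, 20 and 81 were called again without a trended variance and 26 and 176 by DESeq2. Without CCI rat 2 it was 57 and 241, and by edgeR 108 and 343. Leaving out 1 rat gave 19 to 146 rises and 194 to 409 falls, with the fewest rises without CCI rat 1 and the fewest falls without naive rat 1. Removing the chromosome median, which was chosen after seeing the data, gave 177 and 379. With the replicate number as a block the counts were 88 and 233, but the numbers do not pair the rats and only 2 are shared.

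No window passed an adjusted p of 0.05, and with an unadjusted p below 0.01 there were 9 low and 4 high. Low and high windows that passed the adjusted threshold were 4 and 6 with a pseudocount of 10, 12 and 3 without the 25% of regions of lowest mean, 36 and 20 with quantile normalization, 9 and 11 with H3K4me1 regions alone, 9 and 23 with the other regions alone, and 4 and 1 with at least 50 regions per window. Leaving out 1 rat gave 0 to 19 on each side, and 19 on each side without naive rat 2. The replicate block gave 0 and 0, as did the window's share of the chromosome reads, chosen after seeing the data. None of the 16 named windows changed sign in any alternative in which it had enough regions to be tested. With H3K4me1 regions alone, the 8 low windows had fewer than 20 regions and were not tested. Named windows with fewer than 50 regions were left out where 50 were asked for. The genome's shares in these alternatives are not given here, so no excess on chromosome 2 is read from the counts. The cause of these moves was not tested.

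The chromosome median was -0.13 with median-of-ratios rescaling and -0.16 with quantile normalization, and -0.08 to 0.03 without 1 rat. The H3K4me1 overlap difference, -0.02, was 0.025 with quantile normalization, 0.090 within classes of mean signal and -0.16 to 0.13 without 1 rat. The signal class difference stayed below 0, from -1.04 to -0.57 without 1 rat, and was -0.12 with classes by the mean of all 5 rats. In the fits without 1 rat the naive rats still made the classes and entered the difference, so the sign there is not independent evidence. The difference between windows rich and poor in H3K4me1 stayed above 0, from 0.17 to 0.51 without 1 rat, and this comparison and its alternatives were chosen after seeing the data. The named regions were the 16 of lowest p, the construct D region and the 33 listed ones, with some in more than 1 of these sets. In all of them the groups did not overlap to begin with, and none changed sign. Of them 30 lost the threshold without a trended variance and 17 without CCI rat 1. The shallowest library had a median of 9 reads per region, and the smallest difference that this depth can show was not measured.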
